A study of Mus musculus with 2 samples.

Results

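The cytosolic ribosomal protein genes were taken as the protein-coding mouse genes whose symbol is Rpl or Rps followed by a number, together with Rplp0, Rplp1, Rplp2 and Rpsa, and with the a, x, l and p endings of close relatives. A digit after such an ending was also allowed, which let in Rps3a1, Rpl7l1 and Rpl22l1. Mitochondrial ribosomal proteins and the Rps6k kinases were left out. This rule gave 85 genes of 21486 protein-coding genes that could be placed on mm10 with a strand, which is 0.396% of them. Of the 85, 53 with Rpl symbols were counted as large subunit genes and 32 with Rps symbols as small subunit genes, paralogs included.

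The ribosome is built from ribosomal RNA and a fixed set of proteins, each needed in about equal amounts, and growing cells such as embryonic stem cells make ribosomes at a high rate. Ribosomal protein genes are short and widely scattered over the chromosomes, and most are known to start transcription at a C inside a run of pyrimidines, the 5′-terminal oligopyrimidine tract through which growth signals control their translation. NANOG, a pluripotency factor with a homeodomain, binds many distal enhancers together with OCT4 (Pou5f1) and SOX2. ChIP-seq recovers the DNA to which a protein is cross-linked, and a peak says where NANOG was recovered, not whether a gene responds to it.

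NANOG was mapped by ChIP-seq in 2 biological replicates of E14TG2a.4, embryonic stem cells of a male 129/Ola mouse, for which the labels give an age of 3.5 days. All data therefore come from 1 group, untreated as far as the labels say, and from 1 cell line derived from 1 donor, so that no condition was compared and p-values are not given. The authors' optimal set of 15891 peaks and conservative set of 9431 peaks, both made from the 2 replicates, were used with the 300000 ranked regions of each replicate, on mm10. Separately called mm9 lists served as a second reading, and read depth is unknown because the lists hold no counts.

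Of the 6 embryonic stem cell markers looked at, 5 had an optimal summit within 50 kb of the transcription start site (TSS), taken as the 5′ end of the gene. Pou5f1 had one of signal 314.3 at 0.930 kb upstream, Zfp42 one of 38.4 at 0.202 kb upstream, Sox2 one of 93.5 at 3.59 kb upstream and Nanog one of 59.6 at 4.88 kb upstream. Klf4 had its nearest summit 12.6 kb downstream of its start, and Esrrb had none within 50 kb. Signal is the enrichment statistic the authors deposited for each peak, on a scale that is not given in the sources used here; values ran from 7.30 to 675.8 in the optimal set, with a median of 40.2.

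The promoters of the 3 ribosomal protein genes with an optimal NANOG summit within 1 kb of the TSS are shown because they lie closest to a NANOG summit. Each runs from 120 bases before to 20 bases after the transcript start in RefSeq (GRCm38.p6), written 5′ to 3′ on the gene's strand. Capitals mark the longest run of pyrimidines near the start and every match to the ETS motif CCGGAAG or the SP motif GGGCGG on either strand. Rps21 lies at chr2:180257259-180257398, Rpl27 at chr11:101442125-101442264 and Rps25 at chr9:44407594-44407733, all on the plus strand.
Rps21: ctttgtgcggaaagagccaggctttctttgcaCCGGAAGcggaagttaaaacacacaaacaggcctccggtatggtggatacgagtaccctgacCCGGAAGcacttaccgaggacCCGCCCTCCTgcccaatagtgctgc
Rpl27: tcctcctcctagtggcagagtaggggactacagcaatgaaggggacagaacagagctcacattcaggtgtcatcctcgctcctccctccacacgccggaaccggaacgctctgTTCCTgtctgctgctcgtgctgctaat
Rps25: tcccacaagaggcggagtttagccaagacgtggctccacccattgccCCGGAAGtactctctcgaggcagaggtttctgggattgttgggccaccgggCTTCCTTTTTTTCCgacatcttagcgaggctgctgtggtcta
Rps21 held 2 ETS matches and 1 SP match in this stretch, and Rps25 held 1 ETS match and a pyrimidine run of 14 bases that ends shortly before the annotated start. The Rps21 summit, 48 bases before the start, falls inside the stretch, while the Rpl27 and Rps25 summits fall outside theirs.

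Across the whole RefSeq table, 65 of the 85 genes had a promoter of 300 bases, 250 before and 50 after the start, and were set beside 17492 protein-coding promoters of the same length. The start base was a C in 22 of the 65, or 33.8% (95% exact Clopper-Pearson interval 22.6 to 46.6), against 13.7% of all promoters. An unbroken run of at least 8 pyrimidines within 20 bases of the start was present in 29, or 44.6% (32.3 to 57.5), against 15.4%. The ETS motif was found in 25, or 38.5% (26.7 to 51.4), against 11.9%, and the SP motif in 39, or 60.0% (47.1 to 72.0), against 46.3%. The YY1 motif AAGATGGCG was found in 4, or 6.15% (1.70 to 15), against 1.92%. CpG dinucleotides were at a median of 0.870 of the number given by base content, against 0.577, at a like GC content of 57.0% and 56.3%.

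Homeodomain and octamer letters were in few of these promoters, and both intervals included the share of all promoters. TAATGG, a homeodomain core, was in 2 of 65, or 3.08% (0.375 to 10.7), against 6.56%. The octamer ATGCAAAT was in 0 of 65, which leaves a share of up to 5.52%, against 1.72%. TATAAA was in 12.3%, against 13.3%. The motifs were searched on both strands, SP and ETS matches may overlap pyrimidine runs, and a match describes letters in the window and not a bound site.

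**Figure D1:**
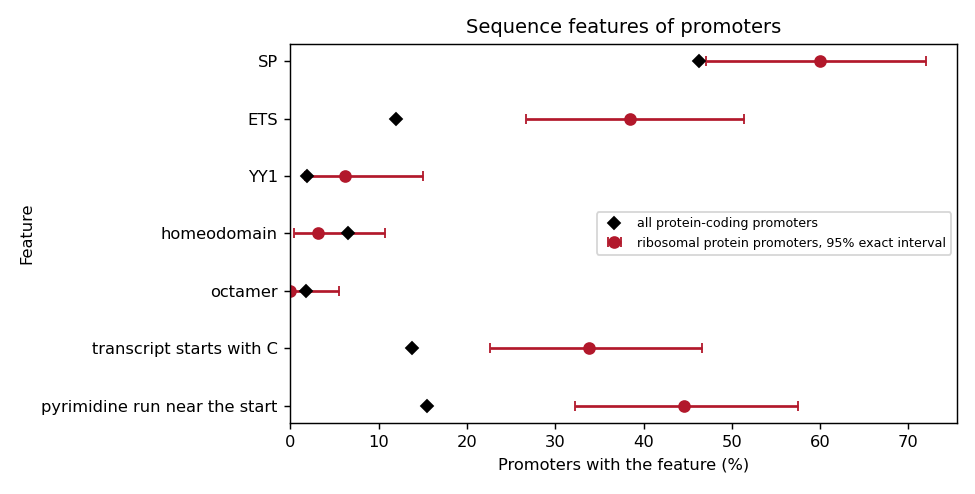
Share of promoters (x axis, percent) holding each sequence feature (y axis), for 65 ribosomal protein promoters (circles, bars are 95% exact intervals) and 17492 protein-coding promoters (diamonds). Ribosomal protein promoters lie to the right of all promoters for ETS, a start at C and pyrimidine runs, with 38.5%, 33.8% and 44.6% against 11.9%, 13.7% and 15.4%, while the homeodomain and octamer intervals include the share of all promoters.

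At the promoters themselves, NANOG peaks were rare, as they were at all genes. An optimal summit lay within 1 kb of the TSS in 3 of 85 ribosomal protein genes, or 3.53% (0.734 to 9.97), and in 2.38% of all protein-coding genes. Within 10 kb the count was 15, or 17.6% (10.2 to 27.4), against 14.5%. Within 50 kb it was 51, or 60.0% (48.8 to 70.5), against 44.9%, and here the interval of the ribosomal protein genes did not include the share of all genes. These intervals cover counting error only and treat the genes as separate draws, although neighbouring genes can share a peak.

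Split by subunit symbol, small subunit genes had a summit within 1, 10 and 50 kb in 2, 7 and 20 of 32, and large subunit genes in 1, 8 and 31 of 53. Thus 6.25% and 1.89% had one within 1 kb, against 2.38% of all genes, and 62.5% and 58.5% within 50 kb, against 44.9%. The shares within 1 kb rest on 2 genes and 1 gene, and no interval was computed for these shares. The large subunit count within 10 kb includes the paralogs Rpl7l1, Rpl10l and Rpl32l. The median distance from the TSS to the nearest summit was 32.7 kb (95% interval 18.4 to 68.5) for the small and 38.4 kb (22.1 to 75.1) for the large subunit. For all 85 genes it was 35.5 kb (25.4 to 56.5; quartiles 15.8 and 87.9), against 58.2 kb (57.0 to 59.5; quartiles 20.6 and 133.6) for 21268 protein-coding genes on chromosomes with a peak.

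The excess within 50 kb was not present among the peaks with the strictest replicate agreement. In the conservative set, 1 of 85 ribosomal protein genes, or 1.18% (0.0298 to 6.38), had a summit within 1 kb, against 1.17% of all genes. The counts within 10 and 50 kb were 4, or 4.71% (1.30 to 11.6), against 8.75%, and 24, or 28.2% (19.0 to 39.0), against 30.6%. Counting only optimal peaks that overlapped one of the 15891 strongest regions in each of the 2 replicates, 1, 4 and 21 genes had a summit within 1, 10 and 50 kb. As shares these were 1.18%, 4.71% (1.30 to 11.6) and 24.7% (16.0 to 35.3), against 0.949%, 7.70% and 27.5% of all genes. In both readings the share of ribosomal protein genes was below that of all genes within 10 and 50 kb, and every interval included the share of all genes.

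Each replicate was also read alone, through its 15891 strongest regions. In replicate 1 these lay within 1, 10 and 50 kb of 1, 16 and 47 of the 85 genes, against 2.41%, 14.6% and 45.0% of all genes. As shares the member counts were 1.18%, 18.8% (11.2 to 28.8) and 55.3% (44.1 to 66.1). In replicate 2 the counts were 3, 13 and 52, or 3.53%, 15.3% (8.40 to 24.7) and 61.2% (50 to 71.6), against 2.11%, 16.1% and 50.4%. The difference from all genes within 50 kb was thus positive in each replicate, and the interval of the ribosomal protein genes included the background in both. Within 1 kb the difference changed sign in replicate 1, and within 10 kb it changed sign in replicate 2.

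On mm9, where 83 of the genes were found among 22367, the series-level peaks gave 0, 12 and 41 genes with a peak centre within 1, 10 and 50 kb. These are 0% (upper bound 4.35), 14.5% (7.70 to 23.9) and 49.4% (38.2 to 60.6), against 1.68%, 12.5% and 42.1%. The replicates differed widely on this build, with 22082 peaks in replicate 1 and 6618 in replicate 2. Within 50 kb, 81.9% (72.0 to 89.5) of the ribosomal protein genes had a replicate 1 peak, against 58.5% of all genes, and 22.9% (14.4 to 33.4) had a replicate 2 peak, against 25.6%.

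**Figure D2:**
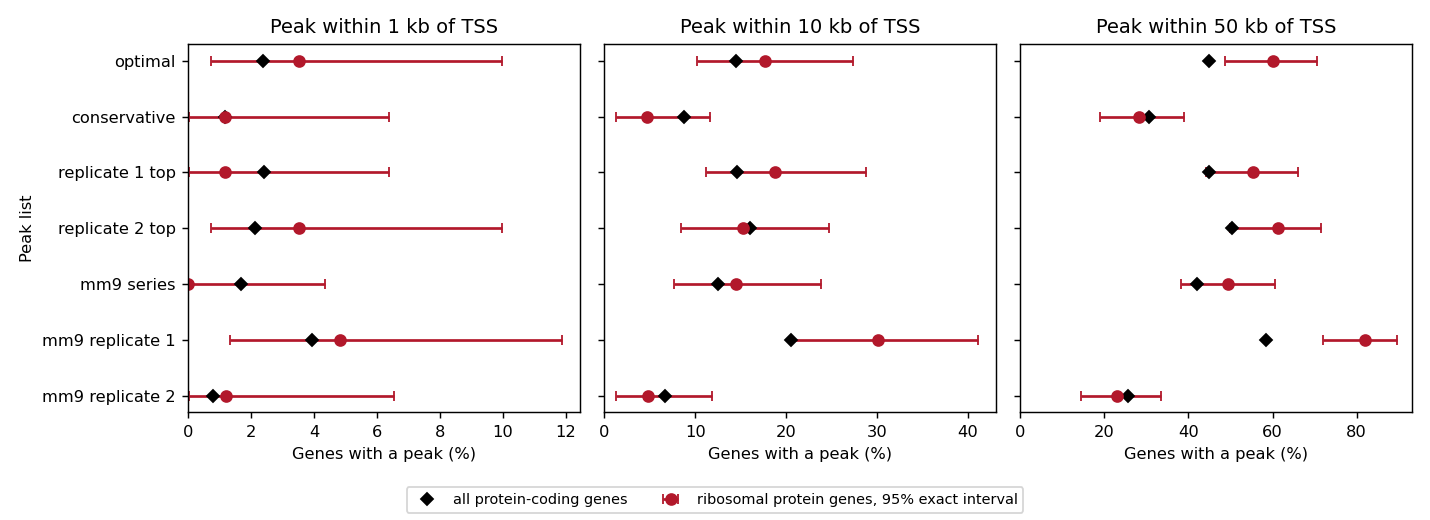
Share of genes (x axis, percent) with a peak within 1, 10 and 50 kb of the TSS (panels) in each peak list (y axis), for ribosomal protein genes (circles, bars are 95% exact intervals) and all protein-coding genes (diamonds). Within 50 kb the circle lies right of the diamond in the optimal set, 60.0% against 44.9%, and left of it in the conservative set, 28.2% against 30.6%.

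The peaks around ribosomal protein genes had a lower median signal, and a smaller share of them was found in both replicates, than for peaks near genes in general. A total of 83 distinct optimal peaks lay within 50 kb of a ribosomal protein TSS, with a median signal of 32.5 (quartiles 22.5 and 51.9), against 39.9 (27.0 and 68.5) for the 8470 optimal peaks within 50 kb of any TSS. Of the 83, 33 were in the conservative set, or 39.8% (29.2 to 51.1), against 57.5% of the 8470. Strong regions of both replicates overlapped 36.1% (25.9 to 47.4), against 51.4%, and strong regions of neither replicate 22.9% (14.4 to 33.4), against 10.3%. Replicate 1 covered 72.3% and replicate 2 41.0%, against 85.1% and 56.0%. The median signal was 61.3 for the 33 conservative peaks and 23.2 for the others.

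Closer in, 19 distinct peaks lay within 10 kb of a ribosomal protein TSS, and 4 of them were in the conservative set, or 21.1% (6.05 to 45.6), against 55.6% of peaks within 10 kb of any TSS. Of the 83 peaks, 22 had no region at all in the replicate 2 list and 1 had none in the replicate 1 list. These counts were not made for peaks near any TSS, of which strong regions of replicate 2 also covered a smaller share than those of replicate 1. Whether the 22 are particular to these genes is therefore not shown. None of the 22 peaks without a replicate 2 region was in the conservative set. That set rests on agreement between the replicates, so this count adds no separate result.

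**Figure D3:**
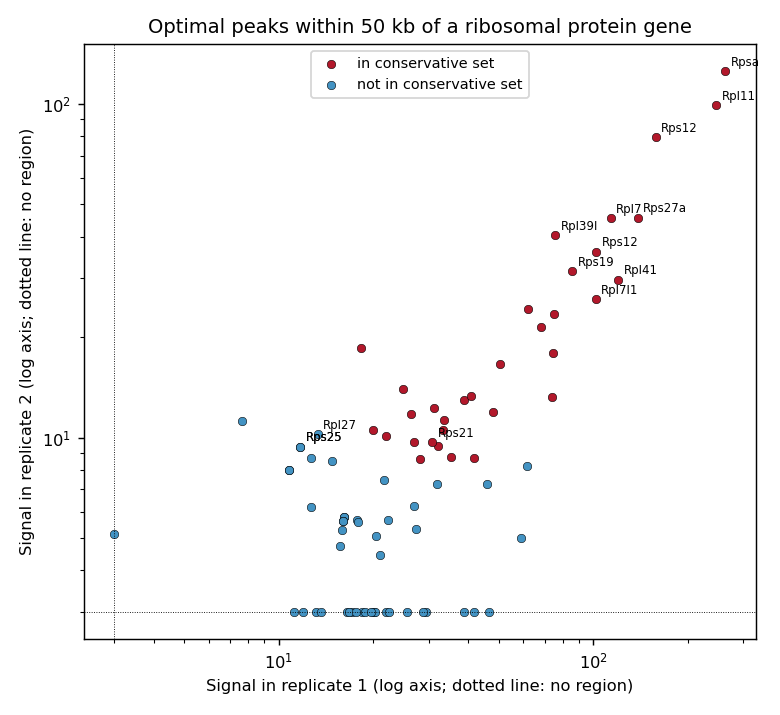
Signal in replicate 1 (x axis, log scale) and replicate 2 (y axis, log scale) of the regions overlapping the optimal peaks within 50 kb of a ribosomal protein gene, with peaks in the conservative set in red and the others in blue, and with peaks lacking a region drawn on the dotted line of that replicate. The peaks near Rpsa, Rpl11 and Rps12 are highest in both replicates, and 22 peaks lie on the replicate 2 line. No such count was made for peaks near all genes.

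The strongest regions of each replicate lay near ribosomal protein genes at a lower share than regions of middle rank. In replicate 1, 21 of the 5000 strongest regions, or 0.420% (0.260 to 0.641), lay within 50 kb of a ribosomal protein TSS. The share was 0.40% at ranks 5001 to 10000, 0.760% (0.665 to 0.865) at ranks 20001 to 50000 and 0.539% at ranks 100001 to 300000. In replicate 2 the shares were, in the same order, 0.320% (0.183 to 0.519, 16 regions), 0.540%, 0.60% (0.516 to 0.694) and 0.478%. Within 10 kb, 3 of the 5000 strongest regions of replicate 1 and 2 of those of replicate 2 qualified. These are 0.0600% (0.0124 to 0.175) and 0.0400% (0.00484 to 0.144), against 0.187% (0.141 to 0.242) and 0.143% (0.104 to 0.193) at ranks 20001 to 50000. Only in replicate 1 within 50 kb did the interval of the strongest regions not overlap that of ranks 20001 to 50000. The share near any TSS moved less, from 52.2% to 57.4% in replicate 1 and from 55.5% to 54.9% in replicate 2 between those ranks.

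**Figure D4:**
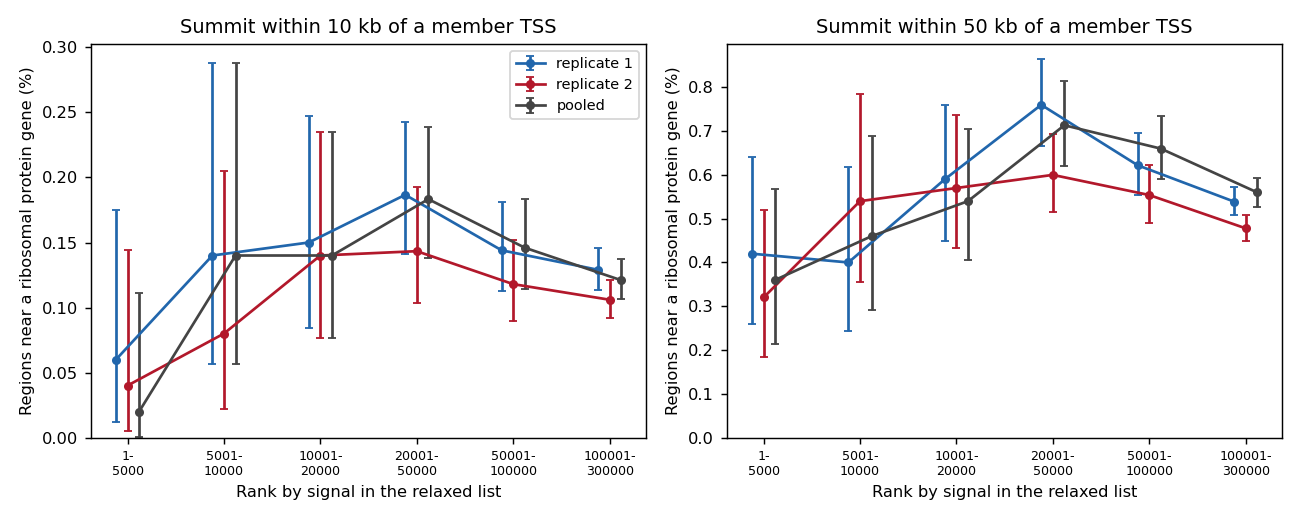
Share of regions (y axis, percent, bars are 95% exact intervals) whose summit lies within 10 kb (left) or 50 kb (right) of a ribosomal protein TSS, by rank of signal (x axis, rank 1 is the strongest) in replicate 1, replicate 2 and the pooled list. The strongest 5000 regions have the lowest share in each list within 10 kb, 0.0600%, 0.0400% and 0.0200%, and ranks 20001 to 50000 the highest. In replicate 1 and in replicate 2 the intervals of these ranks overlap within 10 kb.

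Ribosomal protein genes also stand in more crowded surroundings and are shorter than most. A median of 3 other protein-coding TSSs lay within 50 kb of each, against 1 for all genes, and the median gene length was 3.18 kb against 17.3 kb. When each optimal peak was given to its nearest TSS alone, 19 ribosomal protein genes had one within 50 kb, or 22.4%, against 25.5% of all genes, and 11 had one within 10 kb, or 12.9%, against 12.4%. Split by crowding, 28 of the 41 ribosomal protein genes with at most 2 other TSSs within 50 kb had an optimal summit there: 4 of 6 with none and 24 of 35 with 1 or 2, or 66.7% (22.3 to 95.7) and 68.6% (50.7 to 83.1), against 42.2% and 45.7% of all genes. Of the 44 with 3 or more, 23 had one, or 52.3% (36.7 to 67.5), against 46.1%. In the conservative set, the shares of ribosomal protein genes and of all genes were 33.3% (2 of 6) and 30.2% with no other TSS, 31.4% and 31.8% with 1 or 2, and 25% and 29.4% with 3 or more. The part of crowding in the excess was not tested beyond these counts.

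The nearest summit seldom lay in the gene itself. For the 51 genes with one within 50 kb, it was upstream in 28, downstream beyond the gene in 21 and inside the gene in 2, Rpl27 and Rpl21, or 3.92% against 24.8% for all genes. The part of gene length in this difference was not tested. Per gene, 34 had no optimal summit within 50 kb, 30 had 1, 13 had 2 and 8 had 3 or more.

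Rps21, which codes for a small subunit protein, had the promoter peak with the most replicate support. Its peak at chr2:180257149-180257512 had its summit 0.048 kb upstream of the TSS and a signal of 41.7, with 30.7 in replicate 1 (rank 8145) and 9.68 in replicate 2 (rank 12183), and it was in the conservative set. It was the one ribosomal protein promoter among the 15891 strongest regions of both replicates. On mm9, a replicate 1 peak with an enrichment of 11.1 lay 0.113 kb from its TSS and a replicate 2 peak with 5.73 lay 0.094 kb from it, but the series-level list had none within 1 kb. A stronger optimal peak, of signal 100.1, lay 29.7 kb upstream of Rps21 and 1.76 kb from the TSS of Lama5, a laminin chain gene.

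Rpl27 and Rps25 rested on replicate 2. Rpl27, a large subunit gene, had a peak at chr11:101442141-101442504 with its summit 0.078 kb downstream of the TSS and a signal of 26.2, ranked 22239 in replicate 1 (13.3) and 9997 in replicate 2 (10.2). A second peak 5.12 kb upstream had a signal of 55.6 and went the other way, with rank 3365 in replicate 1 (59.1) and rank 200652 in replicate 2 (4.98). Rps25, a small subunit gene, had overlapping regions with summits 0.160 and 0.379 kb upstream and signals of 7.72 and 23.8, both over 1 region of rank 27223 in replicate 1 (11.7) and 13667 in replicate 2 (9.39). The closer of them, at chr9:44407372-44407735, lay 0.006 kb from the TSS of Trappc4, and Trappc4, not Rps25, was its nearest gene. None of these was in the conservative set.

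Beyond the promoter, the strongest peak within 10 kb of any of the 85 lay at a small subunit gene. Rps19, whose human counterpart is mutated in Diamond-Blackfan anaemia, had a peak at chr7:24879668-24879864, 4.85 kb upstream and in no protein-coding gene, of signal 116.4, with 85.7 in replicate 1 (rank 1839) and 31.5 in replicate 2 (rank 1481). Its mm9 peak was present in all 3 lists, at 4.58, 4.54 and 4.65 kb with enrichments of 15.7, 30.9 and 15.4 in the series-level, replicate 1 and replicate 2 lists. Rps18 had a conservative peak of signal 39.9 at 3.72 kb downstream, ranked 7710 and 13498, but it lay 0.457 kb from the TSS of B3galt4. Rps23 at 2.25 kb downstream (40.9), Rps27a, which codes for a ubiquitin fusion protein, at 3.11 kb upstream (29.0) and Rps20 at 8.14 kb upstream (23.3) had ranks from 7849 to 9538 in replicate 1. In replicate 2 the first pair ranked 44966 and 88413, and Rps20 had no region.

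Among large subunit genes the peaks within 10 kb had signals of at most 55.6. Rpl21 had a summit inside the gene at 2.01 kb (21.9; ranks 23836 and 19171). Rpl23 had summits at 5.02 and 6.52 kb downstream (52.6 and 27.1), both closer to the TSS of 1700001P01Rik. Rpl3, a protein near the catalytic centre, had one at 7.65 kb upstream (24.0), 0.274 kb from the TSS of Syngr1, and Rpl39 one at 8.30 kb downstream (33.3), and neither had a region in replicate 2. None of these 4 genes had a conservative peak within 10 kb.

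Paralogs that are not part of the standard set made up the rest. Rpl10l, a retrogene copy of Rpl10 known for expression in testis, had a conservative peak of signal 37.6 at 8.35 kb downstream, with 18.2 in replicate 1 (rank 14984) and 18.5 in replicate 2 (rank 3357). Rpl7l1 had a peak at 5.51 kb upstream (23.3) and 6 within 50 kb, the most of the 85 genes, of which the strongest was 29.9 kb upstream with 126.2. Rpl32l had overlapping regions at 8.48 and 8.69 kb upstream (8.37 and 25.4) inside Map7, with rank 17340 in replicate 1 and 131137 in replicate 2. Sequence copies can share reads, and how the authors placed such reads is not stated in the labels.

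The strongest NANOG peaks around ribosomal protein genes lay farther out, and all 11 distinct peaks with a signal above 100 were in the conservative set. The share of all optimal peaks above 100 in that set was not counted. Conservative peaks near these genes had the higher signals, with a median of 61.3 against 23.2 for the others. For 4 of these 11, a ribosomal protein gene was the nearest TSS, against 29 of all 83 peaks within 50 kb. The highest was 21.9 kb downstream of the TSS of Rpsa, the small subunit protein also known as the laminin receptor, at chr9:120149481-120149826 with a signal of 388.3. It had 263.0 in replicate 1 (rank 61) and 125.4 in replicate 2 (rank 65), and lay 0.087 kb from the TSS of Mobp, a myelin protein gene. Next was a peak 36.0 kb upstream of Rpl11, which binds MDM2 under nucleolar stress, at chr4:136089183-136089523. Its signal was 344.8, with 246.0 in replicate 1 (rank 95) and 99.2 in replicate 2 (rank 142), it lay in no protein-coding gene and Rpl11 was its nearest protein-coding TSS.

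Rps12 had 3 conservative peaks inside the neighbouring Slc18b1, at 17.5, 18.9 and 25.9 kb upstream with signals of 91.5, 135.1 and 238.2. The last of them had 158.0 in replicate 1 (rank 491) and 79.5 in replicate 2 (rank 237). Rps27a had a peak of 181.5 at 49.3 kb upstream, with Rps27a as nearest TSS, ranked 675 and 775. Rpl7 had one of 157.3 inside Rdh10 at 25.7 kb upstream (ranks 1069 and 777), and Rpl41, the shortest ribosomal protein, one of 150.7 at 10.6 kb downstream (ranks 949 and 1631), nearer to Zc3h10. Rpl39l had one of 116.9 inside Atf7ip2 at 47.0 kb downstream. Rpl3 and Rpl8 followed with 95.2 at 33.0 kb and 88.2 at 16.8 kb upstream.

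Sequence at the centre of the mm9 counterparts is shown for the 4 strong sites that represent a distal peak near Rpl11, Rpsa and Rps12 and the closest strong peak, that of Rps19. Each is 101 bases of mm9 around the midpoint of the series-level region, on the plus strand, and capitals mark the SOX motif CATTGT or the homeodomain core TAATGG. They lie at chr4:135645219-135645319 (Rpl11, enrichment 38.8, 35.9 kb away), chr9:120058725-120058825 (Rpsa, 31.8, 21.9 kb), chr10:23533124-23533224 (Rps12, 26.9, 26.2 kb) and chr7:25664757-25664857 (Rps19, 15.7, 4.58 kb).
Rpl11: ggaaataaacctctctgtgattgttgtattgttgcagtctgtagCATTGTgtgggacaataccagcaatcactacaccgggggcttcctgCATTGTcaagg
Rpsa: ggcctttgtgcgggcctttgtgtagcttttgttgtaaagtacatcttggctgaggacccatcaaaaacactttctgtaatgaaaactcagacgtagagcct
Rps12: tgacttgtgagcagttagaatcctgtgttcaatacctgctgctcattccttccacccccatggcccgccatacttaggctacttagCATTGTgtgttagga
Rps19: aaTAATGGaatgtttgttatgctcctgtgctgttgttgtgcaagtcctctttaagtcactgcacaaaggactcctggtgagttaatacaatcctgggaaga
The Rpl11 window held 2 SOX matches, the Rps12 window 1 SOX match, the Rps19 window 1 homeodomain match and the Rpsa window none. Over all 60 series-level mm9 peaks within 50 kb of a ribosomal protein TSS, SOX letters were in 12, or 20.0% (10.8 to 32.3), against 16.0% of all 13341 peaks, and the ESRRB motif CAAGGTCA in 5, or 8.33% (2.76 to 18.4), against 3.63%. The homeodomain core was in 2, or 3.33% (0.406 to 11.5), against 6.90%, and the octamer and SP motifs in 0, against 2.37% and 1.81%. All these intervals included the share of all peaks. Enrichment had a median of 6.71 against 7.38.

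The 300000 regions of each replicate were deposited as peaks together with background, so a region there is not by itself a NANOG peak. Anywhere among them, a summit lay within 1 kb of the TSS in 43 ribosomal protein genes in replicate 1, or 50.6% (39.5 to 61.6), against 43.7% of all genes. In replicate 2 it did so in 40, or 47.1% (36.1 to 58.2), against 29.2%, and in both replicates in 20, or 23.5% (15 to 34.0), against 16.5%. The intervals for replicate 1 and for both replicates included the share of all genes, and that for replicate 2 did not. Their best ranks had medians of 128110 and 127688, against 106997 and 128782 for all genes with a region. Within the 50000 strongest regions, 10 genes qualified in each replicate, or 11.8%, against 11.4% and 6.49% of all genes. In 22 of the 85 genes neither replicate had a region within 1 kb. The same count was not made for all genes. The shares above imply, however, that a larger share of all genes than of these genes had no region in either replicate. The 22 genes are therefore not a lack particular to ribosomal protein promoters.

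Single promoters differed between the replicates in this range. Rps15 ranked 19780, Rps9 20340 and Rplp0 29702 in replicate 1, while in replicate 2 Rps15 had no region and the others ranked 183594 and 132491. In replicate 2, Rpl12 ranked 15921, just outside the strongest 15891, against 242892 in replicate 1. On mm9, replicate 1 had promoter peaks at Rps15 (0.019 kb, enrichment 7.48), Rps10 (0.249 kb, 9.11) and Rps28 (0.034 kb, 4.23), and neither replicate 2 nor the series-level list had one within 1 kb of them.

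**Figure D5:**
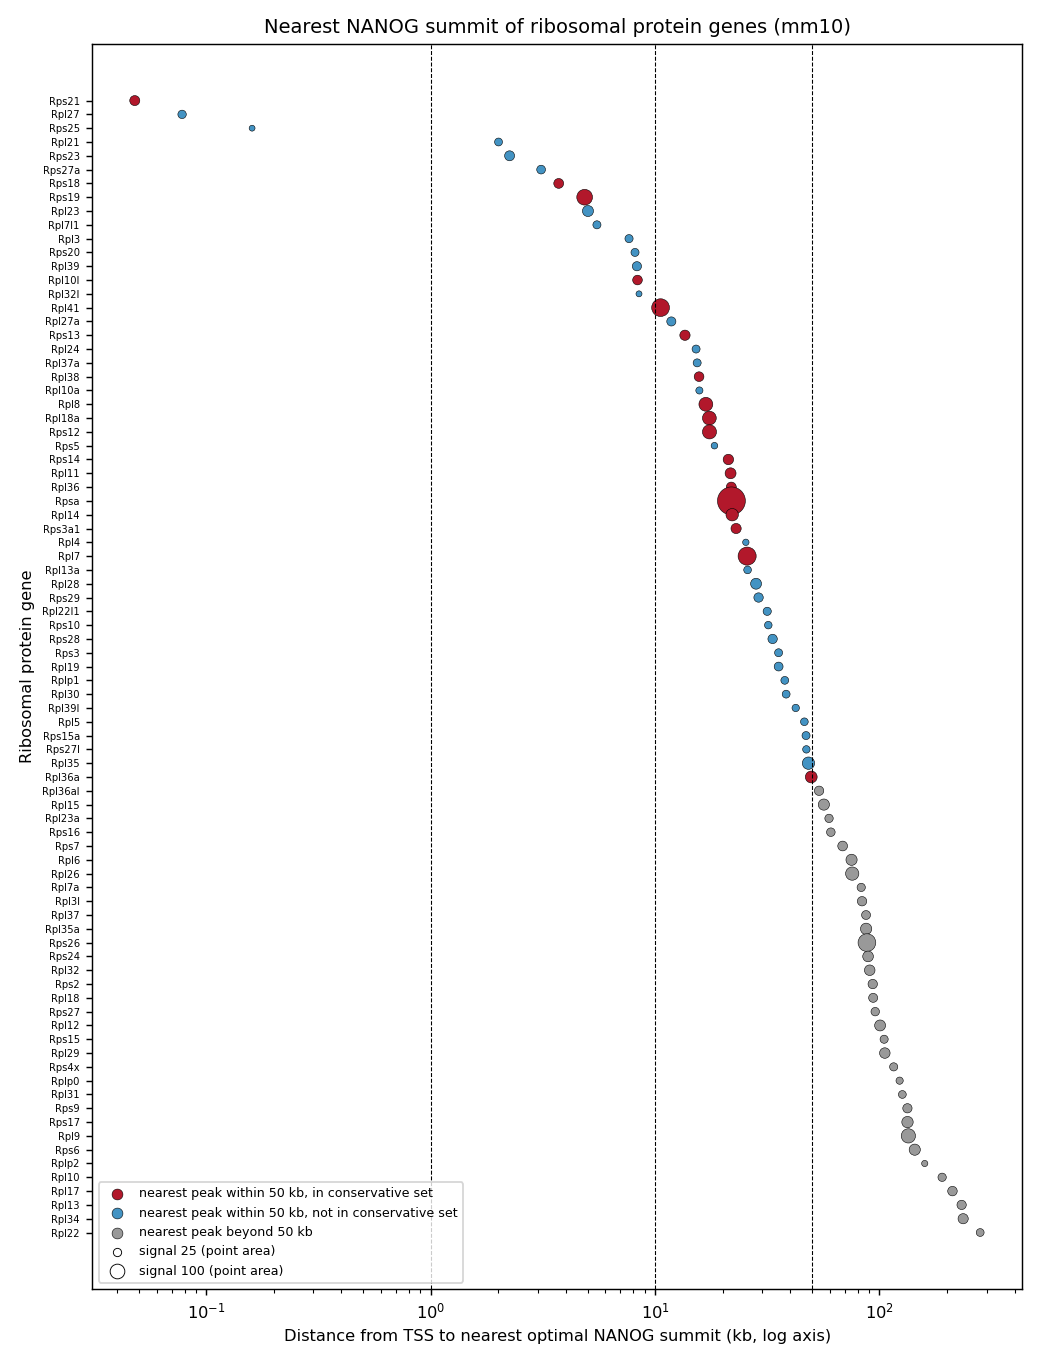
Distance from the TSS of 83 of the 85 ribosomal protein genes (y axis) to the nearest optimal NANOG summit (x axis, kb, log scale), with the point area showing the signal, dashed lines at 1, 10 and 50 kb, and colour showing whether the peak is in the conservative set. Rps21 at 0.048 kb, Rps18, Rps19 and Rpl10l are red among the 15 genes within 10 kb, and the nearest peak is red in 18 of the 50 shown within 50 kb.

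At the far end, Rpl22 was 281 kb, Rpl34 236 kb and Rpl13 232 kb from any optimal summit. The stalk proteins of the large subunit, which recruit elongation factors, were not close either, with Rplp1 at 37.8 kb (21.3), Rplp0 at 123 kb (16.8) and Rplp2 at 159 kb (9.68). Around the limits, the members nearest to 10 kb were Rpl39, Rpl10l and Rpl32l inside, and Rpl41 at 10.6 kb, Rpl27a at 11.8 kb and Rps13 at 13.6 kb outside. Around 50 kb they were Rps27l at 47.2 kb, Rpl35 at 48.3 kb and Rpl36a at 49.7 kb inside, and Rpl36al at 53.8 kb and Rpl15 at 56.5 kb outside. Around 1 kb, Rps25 was the last inside and Rpl21 at 2.01 kb the first outside.

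Related gene groups were read against the same shares of all genes. These were 2.38%, 14.5% and 44.9% within 1, 10 and 50 kb in the optimal set, and 30.6% within 50 kb in the conservative set. Among 78 mitochondrial ribosomal protein genes, 3, 9 and 36 had an optimal summit within 1, 10 and 50 kb, or 3.85%, 11.5% and 46.2% (34.8 to 57.8). A conservative summit lay within 50 kb of 28, or 35.9%. Among 62 ribosome biogenesis genes the counts were 0, 6 and 32, or 0%, 9.68% and 51.6% (38.6 to 64.5), with 24, or 38.7%, in the conservative set. Among 36 translation factor genes they were 0, 3 and 13, or 0%, 8.33% and 36.1% (20.8 to 53.8), with 11, or 30.6%. Every interval within 50 kb included the share of all genes. No interval was computed for the conservative shares, and no excess is read from them. Of the ribosomal proteins under other symbols, Fau and Rack1 had their nearest summits at 208 and 90.5 kb.

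The highest signals in these groups were 339.2 at 34.1 kb upstream of Mrpl39, 323.7 at 26.4 kb upstream of Mrpl47 and 202.8 at 18 kb downstream of Mrps5. In ribosome biogenesis they were 301.2 at 31.7 kb upstream of Rrn3, a factor of RNA polymerase I, 184.5 at 17.6 kb upstream of Ddx10 and 162.4 at 45.6 kb downstream of Heatr1. Among translation factors they were 279.4 at 18.3 kb downstream of Eif3k, 193.6 at 47.0 kb downstream of Eif4a2 and 123.8 at 31.8 kb upstream of Eif4a1. Differences between these groups and the cytosolic ribosomal protein genes were not tested.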

How the data were processed

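Per the labels and the deposited read-me files, the authors called NANOG peaks on mm10 and mm9 for 2 biological replicates, each with 1 technical replicate. The aligner, the peak caller, the IDR threshold and the way the mm9 replicates were combined are not given in the sources used here. Deposited mm10 lists give a signal, the −log10 of the q-value and a summit per peak, and the deposited mm9 lists an enrichment ratio. The control experiment the labels name was not used here. Lists hold no counts, so depth is unknown and no interval reflects it.

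Genes came from a RefSeq table of GRCm38.p6 with 21887 protein-coding genes on assembled chromosomes. Strand came from the RefSeq promoter table (17492 genes, 65 of the 85) or, by symbol or synonym, from the mm9 GENCODE vM1 annotation (3994 genes, 20 of the 85), and 401 genes without strand were dropped. The 5′ end of each gene was its TSS, and the promoter table places the start of Rpl19 4707 bp, Rpl18 2604 bp and Rps2 1942 bp from it. A gene counted when a summit (mm9: region midpoint) lay within 1, 10 or 50 kb. Replicates were ranked by signal and read through their 15891 strongest regions, as many as the optimal set holds. Overlap meant at least 1 bp, and mm9 and mm10 coordinates were never compared. Intervals are exact Clopper-Pearson at 95%, and those of medians come from order statistics. Exons were not assigned on mm10. The distance search was tested on simulated data. Alternatives were the conservative set, each replicate alone, nearest TSS only, signals at or above the median and the 50000 strongest pooled regions. Others were region midpoints, the 78 members left without listed paralogs, the 82 without a digit after the symbol's ending, and the mm9 list. The listed paralogs did not include Rpl32l. Chosen after seeing the data were the promoter table's start and members that share no nearest peak.

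The genes and lists were chosen with earlier results of these data known. Genes are named by rule: those with a summit within 10 kb, the 12 with the highest signal within 50 kb, the 3 on each side of a limit, the 3 farthest, those within 1 kb in a replicate's strongest regions, Rplp0, Rplp1, Rplp2 and Rpsa, and the top 3 of each other list. A few genes that the rule names are not reported here, and the plot of distances leaves out 2 genes. Rps9, Rps10, Rps15, Rps28 and Rpl12 were named after their values were seen, as was the split by crowding. Scripts used matplotlib 3.10.9, SciPy 1.17.1, pandas 2.3.3, NumPy 2.4.6 and Python 3.11.15.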

Additional observations from a re-analysis of the deposited data

How the results depend on the processing

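Values are the share of ribosomal protein genes with a summit, and its difference from all genes in percentage points. Within 1 kb the difference of 1.15 was -1.23 without replicate 2 and 1.42 without replicate 1. It was -1.68 with the mm9 list (share 0%) and 3.44 in the 50000 strongest pooled regions (14.1%). Within 10 kb the difference of 3.10 was -0.777 without replicate 1 and 4.20 without replicate 2. It was -4.04 in the conservative set (share 4.71%), -1.69 for signals at or above the median (5.88%) and 22.6 in the 50000 strongest pooled regions (64.7%). Within 50 kb the difference of 15.1 was -2.34 in the conservative set (share 28.2%), -3.19 by nearest TSS only (22.4%), 0.575 for signals at or above the median (28.2%) and 17.3 in the 50000 strongest pooled regions (97.6%). The median distance of 35.5 kb (58.2 kb for all genes) became 87.9 kb (98.0), 92.9 kb (113.9) and 6.36 kb (13.6) in the conservative set, the stronger peaks and the pooled regions, which hold fewer or more peaks by construction. The cause of the reversals was not tested. The other 60 values stayed within the 95% interval of the reported value and kept their direction. With 3 genes within 1 kb, no difference of the sizes seen there was detectable.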
